A study of Mus musculus with 4 samples.

Results

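The genes described here are the mitochondrial solute carriers of the Slc25a family, measured in RNA that was precipitated with Cpeb4 from mouse fetal liver erythroblasts, the immature red blood cells. They were taken by gene symbol alone: of 45 probe sets whose symbol starts with Slc25a, Slc25a37 and Slc25a38 were left out, which gave 43 of the 23185 probe sets with a symbol. No level filter was used for the choice. RefSeq gave the same symbol for all 43.

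All 4 arrays came from Ter119+ cells of E14.5 embryo livers, isolated with magnetic beads. The groups were 2 biological replicates precipitated with an antibody to the RNA-binding protein Cpeb4 (the IP), 1 control precipitate with rabbit IgG, and 1 array of total input RNA with no antibody. Strain and genotype are not given, and whether a control came from the same cells as an IP replicate is not stated. The cells were selected by 1 surface marker, so they span the stages of erythroblast that carry it. The question was which carrier mRNAs stood higher in the Cpeb4 precipitate than in IgG and in input. Both controls were single arrays, so all p-values measure only the spread between the 2 IP replicates.

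Slc25 proteins sit mostly in the inner mitochondrial membrane and move nucleotides, phosphate, amino acids, organic acids, cofactors and metal ions between the cytosol and the matrix. They are made in the cytosol and brought to that membrane by the outer membrane pore, small chaperones of the intermembrane space and the TIM22 complex. In erythroblasts this traffic serves heme synthesis, which starts and ends in the matrix, and it is lost with the mitochondria when red cells mature.

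Values are the deposited log2 expression values, and a difference of 1 on this scale is 2-fold. A carrier was counted by size when both IP replicates lay at least 2-fold from a control in the same direction. Beside this, limma was fitted over the 13911 genes whose mean over the 4 arrays reached 3.844. Of the 43 carriers 35 passed this filter and were tested. "Rose" and "fell" are used below only for a limma adjusted p under 0.05. The test had 1 residual degree of freedom. Its standard errors were very small where the IP replicates had equal values, which was so for 10 of 43 carriers and for 23.9% of all probe sets with a symbol. Over all tested genes, limma called 80.1% of genes with equal IP values and 37.0% of the others against IgG.

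The 4 arrays differed in ways that touch the carriers. Over all probe sets the IgG values had the smallest SD, 1.74, against 2.05 to 2.13 on the others. Markers of the erythroid lineage were high on every array: the median of the 8 markers matched (of 12 listed) lay between 11.07 and 11.36, and none of the 8 was under 8.22. Lists of markers of other cells had larger sums in the IP, though not all their genes did. The summed linear values of 6 megakaryocyte markers were 974 in input, 1841 in IgG and 3294 to 3576 in the IP, and those of 6 neutrophil markers were 640, 1496 and 2380 to 2401. For 7 macrophage markers the sums were 130, 177 and 306 to 368, and for 6 hepatocyte markers (of 7 listed) 109, 189 and 429 to 497. In each of these 4 lists 2 markers were at least 2-fold above both controls, and in the erythroid list none was. Both IP replicates were above IgG for 6 of 6 megakaryocyte, 5 of 6 neutrophil and 5 of 6 hepatocyte markers, with median differences of 0.82, 1.01 and 0.43. Of the macrophage markers 2 of 7 were above IgG in both replicates and 4 below, with a median of -0.13, so their sum rested on Adgre1 and Csf1r. In bulk RNA the number of cells of a type and the RNA per cell cannot be told apart. The part of these cells in the carrier values was not tested.

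Slc25a24 was the only carrier at least 2-fold above both controls in both IP replicates. Slc25a24 is a carrier that exchanges ATP-Mg for phosphate and is activated by calcium. Its values were 4.91 in input, 4.03 in IgG, and 6.87 and 6.51 in IP replicates 1 and 2. Both IP values were thus above both controls, with the IgG array lowest. Slc25a24 differed by 2.66 from IgG (6.34-fold, SE 0.26) and by 1.78 from input (3.44-fold, SE 0.26). It passed the limma test against neither control, with limma adjusted p = 0.0546 for IgG and 0.122 for input. After quantile normalization of the 4 arrays again it passed against IgG (limma adjusted p = 0.0138) and not against input (0.0536). With each array centred on its median over tested genes it passed against both (limma adjusted p = 6.04e-06 and 7.65e-05). With eBayes with trend and robust it passed against neither (limma adjusted p = 0.0859 and 0.176). In a test that gave all genes of like level 1 common IP spread (the common-spread test) it passed against both, with adjusted p = 2.36e-39 and 8.64e-18. The part of the other cell types, whose marker sums are given above, in the Slc25a24 value was not tested. Over all probe sets with a symbol, 1.5% were at least 2-fold above both controls, against 1 of the 43 carriers (2.33%). The 2 comparisons share the IP arrays. No carrier was at least 2-fold below both controls, where the share over all probe sets was 0.323%.

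**Figure D1:**
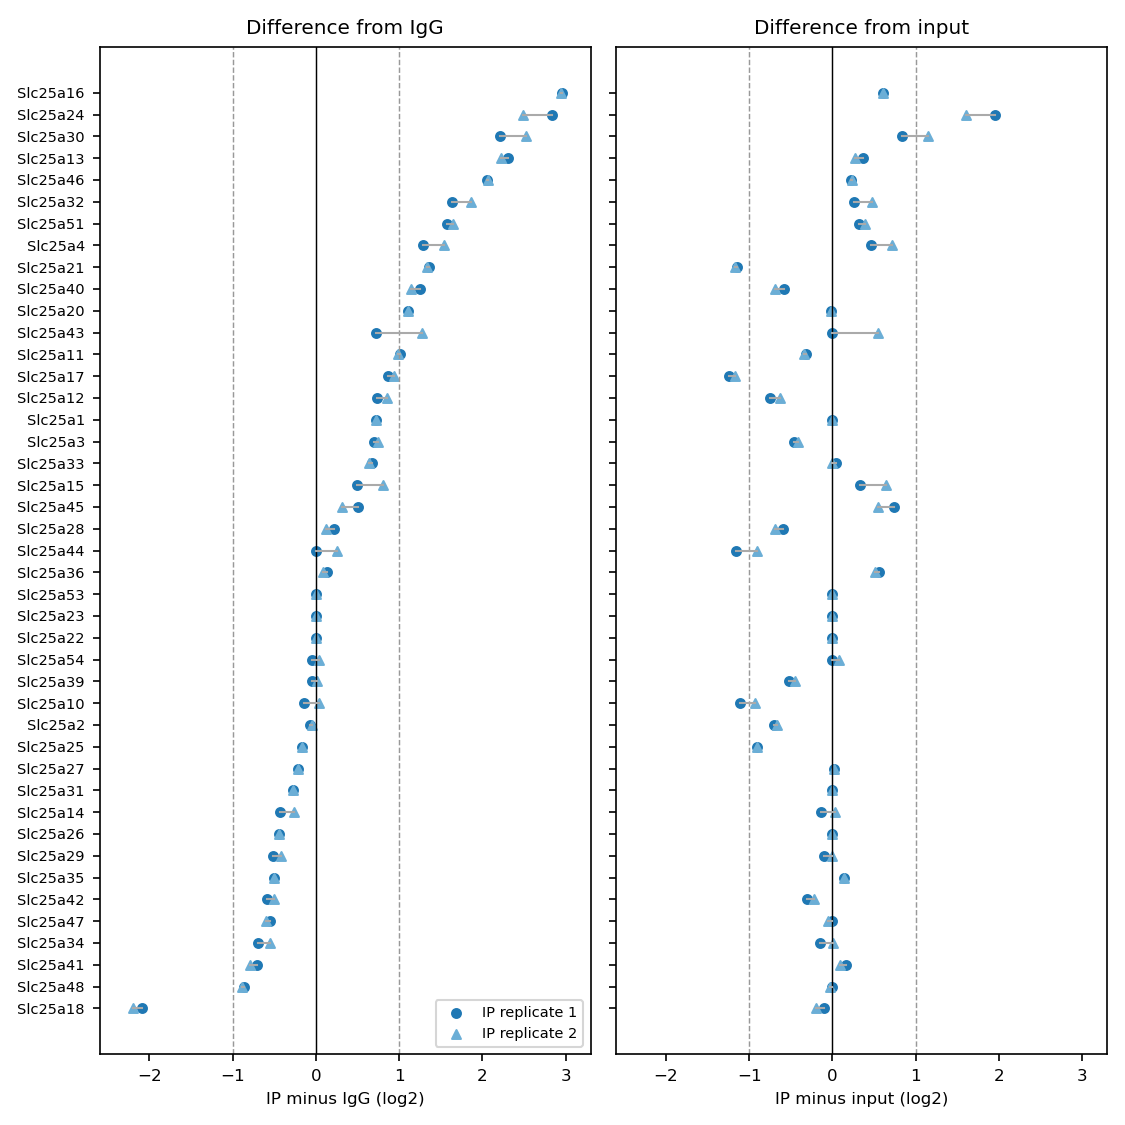
Difference of each IP replicate from IgG (left) and from input (right) for the 43 carriers, on the log2 scale, in the order of their difference from IgG. Circles are replicate 1 and triangles replicate 2, and dashed lines mark 2-fold. Slc25a24 alone lies past the right-hand dashed line with both symbols in both panels.

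Slc25a30, a relative of the uncoupling proteins that was first described in kidney, came closest to Slc25a24. Its values were 6.29 in input, 4.91 in IgG, and 7.13 and 7.44 in the IP. Both IP replicates were above both controls, and only replicate 2 passed 2-fold over input, with differences of 0.84 and 1.15. Slc25a30 was 5.17 times the IgG value and 1.99 times the input value and passed neither limma test (limma adjusted p = 0.0535 and 0.185). It passed the common-spread test against both (adjusted p = 3.18e-48 and 4.15e-09). After quantile normalization again Slc25a30 passed limma against IgG (limma adjusted p = 0.0132) and not against input (0.0649). With the arrays centred as above it passed against both (limma adjusted p = 5.26e-06 and 0.000549). Its 2 relatives, Slc25a14 and Slc25a27, had values between 3.77 and 4.43 on all 4 arrays. Slc25a14 passed neither limma test (limma adjusted p = 0.207 and 0.814), and Slc25a27 was under the filter.

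Against IgG, 11 of 43 carriers (25.6%) were at least 2-fold higher in both IP replicates, where the share of all probe sets was 11.2%. Only 1, Slc25a18, was at least 2-fold lower (2.33%), against 6.07% of all. After quantile normalization of the 4 arrays again these counts were 9 and 2. They were also 9 and 2 with each array centred on its median over tested genes. The shares of all probe sets under these 2 settings are not given. By the limma test 12 of the 35 tested carriers rose (34.3%) and 6 fell (17.1%), near the shares over all tested genes of 29.2% and 17.2%. Slc25a48, among the 6, passed the filter only through its IgG value. The common-spread test called 19 higher (54.3%, against 39% of all tested genes) and 5 lower (14.3%, against 22.3%). Those it called higher and limma did not were Slc25a4, Slc25a12, Slc25a15, Slc25a24, Slc25a30, Slc25a32 and Slc25a43, and Slc25a42 was called lower by it alone. The median difference of the tested carriers was 0.66, against 0.08 for all tested genes. With replicate 1 alone it was 0.678 and with replicate 2 alone 0.725. After quantile normalization of the 4 arrays again, it was 0.14, against 0.02 for all tested genes. With each array centred on its median over tested genes, it was 0.41, against -0.165.

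The carrier with the largest difference from IgG was Slc25a16, which has been linked to coenzyme A in the matrix. Its values were 7.63 in input, 5.29 in IgG, and 8.24 and 8.24 in the IP. The IP replicates lay close together and above both controls. Slc25a16 rose 7.75-fold over IgG, a log2 difference of 2.95 (limma adjusted p = 0.00629). Against input it rose 1.53-fold, or by 0.61 (limma adjusted p = 0.0168). Slc25a16 and Slc25a46 were the carriers that rose against both controls, 5.71% of the 35 tested, where 4.96% of all tested genes did.

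Slc25a46, an outer membrane protein of the family that takes part in mitochondrial fission and fusion, had values of 8.98 in input, 7.15 in IgG, and 9.20 and 9.22 in the IP. Here too the IgG array stood apart from the other 3. Against IgG, Slc25a46 rose 4.18-fold, a log2 difference of 2.06 (limma adjusted p = 0.00629) that was 1.36 after quantile normalization again. Its rise of 0.23 over input (limma adjusted p = 0.0393) was 1.17-fold. That call was lost in the common-spread test (adjusted p = 0.103), with eBayes with trend and robust (limma adjusted p = 0.0582) and after centring (limma adjusted p = 0.0949).

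The aspartate/glutamate carriers of the malate-aspartate shuttle, which brings reducing equivalents into the matrix, are Slc25a13 and Slc25a12. Slc25a13, or citrin, had values of 5.69 in input, 3.74 in IgG, and 6.05 and 5.96 in the IP. Slc25a13 rose 4.81-fold over IgG, or by 2.27 (limma adjusted p = 0.018), and was 0.32 above input (limma adjusted p = 0.171). Slc25a12, or aralar, had values of 8.86 in input, 7.38 in IgG, and 8.12 and 8.23 in the IP. Both IP replicates of aralar thus lay between the controls, while those of citrin lay above both. Slc25a12 was 0.79 above IgG and 0.69 on the log2 scale below input, and passed neither limma test (limma adjusted p = 0.0589 and 0.103). The first difference was 0.05 after quantile normalization again.

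The glutamate carriers Slc25a18 and Slc25a22 behaved in other ways. Slc25a18 had values of 4.04 in input, 6.04 in IgG, and 3.95 and 3.84 in the IP. The IgG array was the high one, and the IP replicates were near input. Slc25a18 fell by 2.15 on the log2 scale against IgG (4.43-fold lower, limma adjusted p = 0.0207), and its difference from input was -0.15 (limma adjusted p = 0.398). Slc25a22 had the value 5.13 on all 4 arrays.

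Equal values on all 4 arrays were also listed for Slc25a23, an ATP-Mg/phosphate carrier, at 4.88, and for Slc25a53 at 3.32. Such equality (within 1e-09) was found for 3 of 43 carriers (6.98%) and for 2.35% of all probe sets with a symbol. Median polish, the step of RMA that summarises probes, can set a gene's array effect to 0, so an equal value does not by itself show an equal amount of RNA. Equal values on input and both IP arrays were found for 6 carriers in all (14%, against 10.1% of all), among them Slc25a1, the citrate carrier, at 8.61.

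**Figure D2:**
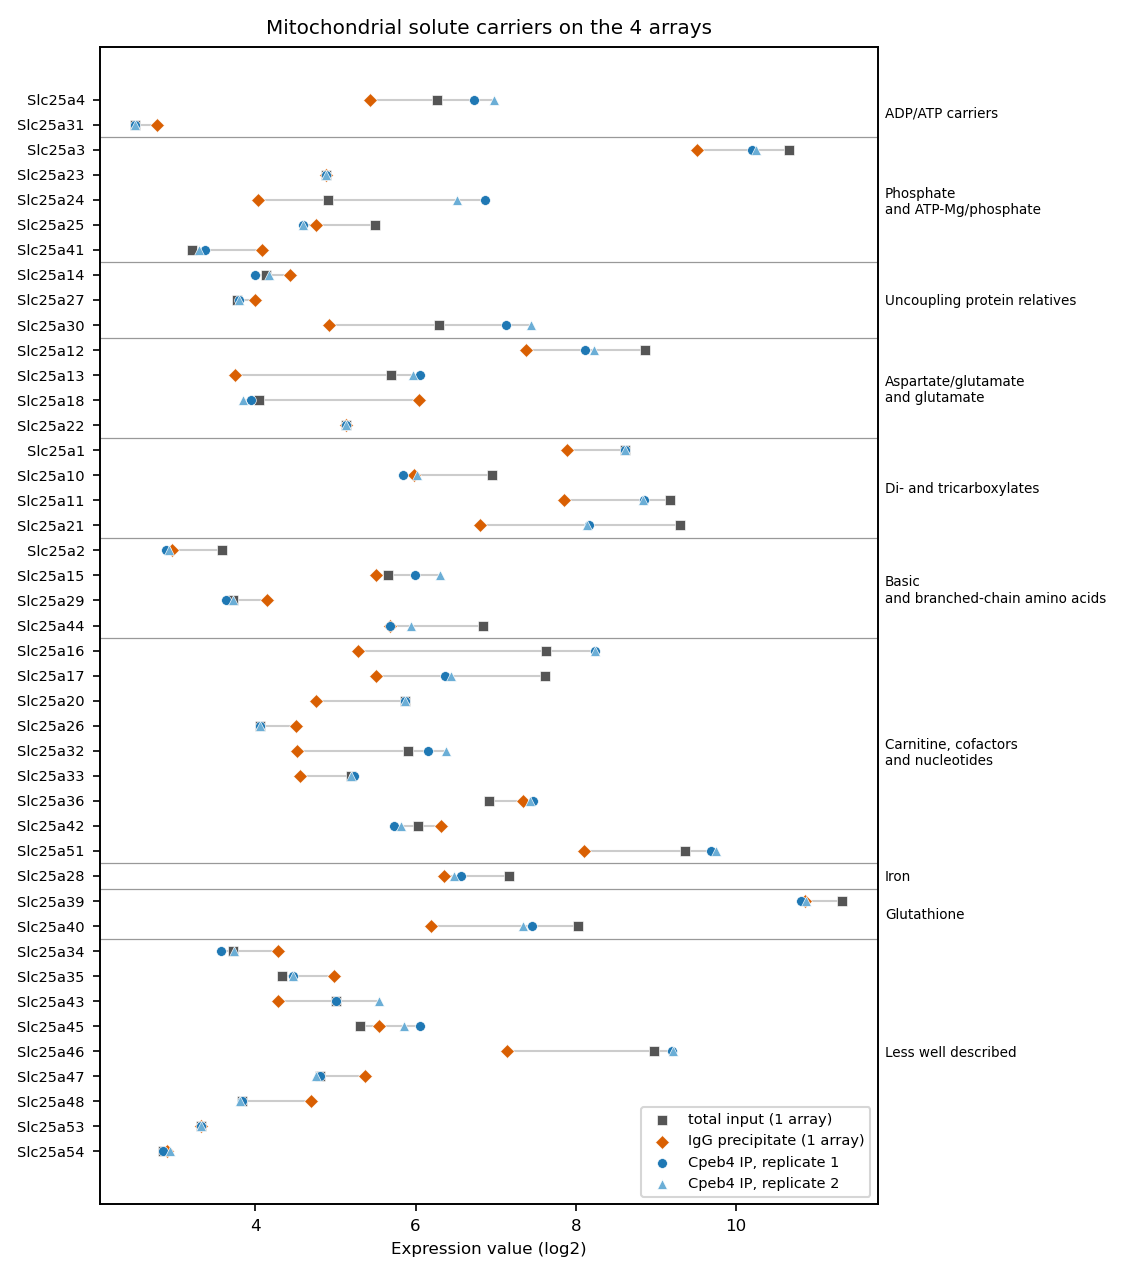
Deposited log2 expression value of each carrier on the 4 arrays, grouped by what the carriers transport. Squares are input, diamonds IgG, circles and triangles the IP replicates, and a grey line joins the lowest and highest; symbols overlap where values are equal, as for Slc25a22, Slc25a23 and Slc25a53. The IgG diamond is leftmost for 20 carriers (46.5%, against 28.4% of all probe sets with a symbol) and rightmost for 12 (27.9%, against 45.6%). Signal levels of different genes are not comparable, since each depends on its probes.

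Among the adenine nucleotide and phosphate carriers, Slc25a4, the ADP/ATP carrier of the inner membrane, had values of 6.26 in input, 5.43 in IgG, and 6.73 and 6.98 in the IP. Both IP replicates were above both controls. Slc25a4 stood at 2.67 times IgG and 1.5 times input and passed neither limma test (limma adjusted p = 0.0725 and 0.251). It passed the common-spread test against both (adjusted p = 6.31e-18 and 0.000944) and limma against IgG after quantile normalization again (limma adjusted p = 0.0224). Its germ cell relative Slc25a31 had 2.77 in IgG and 2.49 on the other 3 arrays, under the filter. The widely expressed ADP/ATP carrier Slc25a5 was not analysed here.

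Slc25a3, which carries the phosphate for ATP synthesis and also copper, had values of 10.66 in input, 9.51 in IgG, and 10.20 and 10.25 in the IP. The IP replicates lay between the controls. Slc25a3 rose by 0.72 over IgG (limma adjusted p = 0.0293), a call lost with eBayes with trend and robust (limma adjusted p = 0.0505). Against input the difference was -0.43 and did not pass (limma adjusted p = 0.0742). After quantile normalization again its difference from IgG was 0.37. Slc25a25, an ATP-Mg/phosphate carrier like Slc25a24, was lower in the IP than in both controls. It had values of 5.49 in input, 4.76 in IgG, and 4.59 in both IP replicates. It fell by 0.90 on the log2 scale against input (limma adjusted p = 0.0164). It also fell by 0.16 against IgG (limma adjusted p = 0.0158), a call lost in the common-spread test (adjusted p = 0.558), and this difference was 0.05 upward after quantile normalization again. Slc25a25 was the 1 carrier of 35 (2.86%) that fell against both controls, where 2.11% of all tested genes did. Slc25a41, of the same subgroup, had 4.08 in IgG and 3.20 to 3.37 elsewhere.

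The carriers of carnitine, cofactors and nucleotides were 9 of the 43. They held 4 of the 11 carriers that were at least 2-fold over IgG, where the share of all probe sets was 11.2%. Slc25a51, which brings NAD+ into the matrix, had values of 9.36 in input, 8.10 in IgG, and 9.68 and 9.75 in the IP. Both IP replicates were above both controls. Slc25a51 rose 3.06-fold over IgG, a log2 difference of 1.61 (limma adjusted p = 0.0194) that was 0.98 after quantile normalization again, and was 0.36 above input (limma adjusted p = 0.122). Slc25a32, a carrier of folate and FAD, was 3.36-fold over IgG, from 4.52 in IgG to 6.16 and 6.38 in the IP, and 5.90 in input (limma adjusted p = 0.0531 for IgG and 0.354 for input). Slc25a20 brings acylcarnitines into the matrix for fatty acid oxidation. It rose by 1.10 over IgG (limma adjusted p = 0.00629), with 4.76 in IgG, 5.87 in input and 5.86 in both IP replicates.

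Within the same group, Slc25a17 went up against 1 control and down against the other. This peroxisomal member of the family carries cofactors such as coenzyme A, and its values were 7.61 in input, 5.51 in IgG, and 6.37 and 6.44 in the IP. The IP replicates lay well inside the gap between the controls. It rose by 0.90 over IgG (limma adjusted p = 0.0334) and fell by 1.21 on the log2 scale against input (2.31-fold lower, limma adjusted p = 0.0419). With eBayes with trend and robust both calls were lost (limma adjusted p = 0.0568 and 0.0679), and without the filter the second (limma adjusted p = 0.0546).

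Of the other cofactor and nucleotide carriers, Slc25a33, for pyrimidine nucleotides, rose by 0.66 over IgG (limma adjusted p = 0.0276). Slc25a26, for S-adenosylmethionine, fell by 0.45 against IgG (limma adjusted p = 0.0072) with equal values of 4.06 on the other 3 arrays. The Slc25a26 call was lost in the common-spread test (adjusted p = 0.107), and its difference was -0.12 after quantile normalization again. Slc25a36, also for pyrimidine nucleotides, was 0.53 above input (limma adjusted p = 0.0615). Its difference of 0.11 from IgG was -0.63 after quantile normalization again. Slc25a42, for coenzyme A, was lower than both controls in both replicates, with 6.03 in input, 6.32 in IgG, and 5.73 and 5.81 in the IP, and passed neither limma test (limma adjusted p = 0.0628 and 0.193). Against IgG the Slc25a42 difference of -0.55 became -1.13 after quantile normalization again.

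The carriers of di- and tricarboxylates, which feed and drain the tricarboxylic acid cycle, were all tested. Of these 4, 3 rose against IgG, where 29.2% of all tested genes did, and 2 fell against input, where 13.3% did. Slc25a21, the oxodicarboxylate carrier, had values of 9.30 in input, 6.80 in IgG, and 8.16 and 8.14 in the IP. The IP replicates again lay between the controls. Slc25a21 rose 2.55-fold over IgG, a log2 difference of 1.35 (limma adjusted p = 0.00885) that was 0.62 after quantile normalization again, and fell by 1.16 on the log2 scale against input (2.23-fold lower, limma adjusted p = 0.0191). Slc25a11, the exchanger of oxoglutarate and malate, had 9.17 in input, 7.85 in IgG, and 8.86 and 8.84 in the IP. It rose by 1.00 over IgG (limma adjusted p = 0.0101), or by 0.29 after quantile normalization again. Its fall of 0.33 against input (limma adjusted p = 0.0438) was lost under 4 settings, with limma adjusted p of 0.0566 with no filter, 0.0689 with eBayes with trend and robust, 0.0975 after centring and 0.139 after quantile normalization again.

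The other members of that group were Slc25a1 and Slc25a10. Slc25a1 rose by 0.73 over IgG (limma adjusted p = 0.00632), a difference of 0.02 after quantile normalization again, and equalled input. Slc25a10, the dicarboxylate carrier, had 6.96 in input, 5.98 in IgG, and 5.85 and 6.02 in the IP. The IP replicates lay on either side of IgG and below input. The mean difference of -0.05 from IgG was -0.54 after quantile normalization again (limma adjusted p = 0.0336). Its difference from input was -1.02 (2.03-fold lower), but replicate 2 reached only -0.93 and the limma test was not passed (limma adjusted p = 0.106). It passed the common-spread test (adjusted p = 1.55e-06).

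Against input, the shares of carriers called by size and by limma were near those of all genes, and those of the common-spread test were larger. By size 1 carrier was at least 2-fold higher (Slc25a24, 2.33%, against 2.49% of all probe sets) and 2 were lower (Slc25a17 and Slc25a21, 4.65%, against 3.27%). By the limma test 3 of 35 rose (8.57%), where 9.39% of all tested genes did, and 4 fell (11.4%), where 13.3% did. The third carrier that rose was Slc25a35, by 0.14 (limma adjusted p = 0.0309), with 4.33 in input and 4.47 in both IP replicates, a call lost in the common-spread test (adjusted p = 0.79). Slc25a35 also fell by 0.51 against IgG (limma adjusted p = 0.00677). The common-spread test called 7 carriers higher than input (20%, against 14.7% of all tested genes) and 11 lower (31.4%, against 22.3%). Those called higher by it and not by limma were Slc25a4, Slc25a24, Slc25a30, Slc25a36, Slc25a45 and Slc25a51. Those called lower by it alone were Slc25a3, Slc25a10, Slc25a12, Slc25a28, Slc25a39, Slc25a40 and Slc25a44. The median difference of the tested carriers from input was 0.00, against -0.01 for all tested genes.

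For the amino acid carriers, Slc25a44, which moves branched-chain amino acids, had 6.84 in input, 5.69 in IgG, and 5.68 and 5.94 in the IP. The IP replicates were near IgG and below input. Its difference of -1.03 from input (2.04-fold lower) did not pass (limma adjusted p = 0.15). Its difference of 0.12 from IgG was -0.25 after quantile normalization again. Slc25a15, the ornithine carrier that links the matrix to the urea cycle, was higher than both controls in both replicates, with 5.66 in input, 5.50 in IgG, and 5.99 and 6.30 in the IP (limma adjusted p = 0.209 and 0.368). Slc25a29, for basic amino acids, and Slc25a2, for ornithine, were under the filter, and their values lay between 2.88 and 4.15.

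Slc25a28 and the glutathione carriers bear on iron and redox balance. Slc25a28, or mitoferrin 2, is the iron importer found in most tissues, and its values were 7.17 in input, 6.36 in IgG, and 6.57 and 6.47 in the IP. The IP replicates were nearer IgG than input. It was 0.64 on the log2 scale below input (limma adjusted p = 0.0921). Its difference of 0.17 from IgG was -0.46 after quantile normalization again (limma adjusted p = 0.0404) and -0.08 after centring.

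Slc25a39, the main glutathione importer of mitochondria, had values of 11.33 in input, 10.86 in IgG, and 10.81 and 10.88 in the IP. The IP replicates were level with IgG, and all 3 precipitates were below input. Its differences were -0.02 from IgG and -0.48 from input (limma adjusted p = 0.814 and 0.0876). Its paralogue Slc25a40 had 8.03 in input, 6.20 in IgG, and 7.45 and 7.34 in the IP, between the controls. Slc25a40 rose 2.29-fold over IgG, a log2 difference of 1.20 (limma adjusted p = 0.0376) that was 0.58 after quantile normalization again, and was 0.64 on the log2 scale below input (limma adjusted p = 0.106).

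The 9 carriers whose substrates are less well described had levels between 2.84 and 9.22. Of the 6 tested, 1 rose against IgG (Slc25a46) and 3 fell, where 29.2% and 17.2% of all tested genes did. The 3 that fell had means over the 4 arrays between 4 and 5. At that level both IP replicates were below IgG for 2700 of all 4220 probe sets with a symbol. Slc25a48 fell by 0.87 on the log2 scale (limma adjusted p = 0.0122), from 4.70 in IgG to 3.83 and 3.81 in the IP, with 3.83 in input. Its input and IP values lay under the filter value of 3.844, and its mean of 4.04 passed only through IgG. The fall of Slc25a48 and its place among the tested genes thus rest on the same IgG value. Slc25a47, a member described in liver, had 4.81 in input, 5.365 in IgG, and 4.81 and 4.76 in the IP. Slc25a47 fell by 0.58 against IgG (limma adjusted p = 0.0344), a call lost with eBayes with trend and robust (limma adjusted p = 0.0582). Slc25a35 is given above. Slc25a34, under the filter, had 3.72 in input, 4.28 in IgG, and 3.57 and 3.73 in the IP. Its difference from IgG was -0.62. Slc25a45 was higher than both controls in both replicates, with 5.30 in input, 5.54 in IgG, and 6.05 and 5.85 in the IP (limma adjusted p = 0.204 and 0.18). Slc25a43 showed the widest gap between IP replicates, at 5.002 and 5.547, with 5.002 in input and 4.276 in IgG. Over the 43 carriers the replicates differed by at most 0.54, with a median gap of 0.07, against 0.08 for all probe sets with a symbol.

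Differences from IgG followed the level of the gene, for carriers and for all genes. Of the 17 carriers whose mean over the 4 arrays was under 5, 1 had both IP replicates above IgG and 13 had both below, and the median difference was -0.35. Of the 26 carriers at 5 or above, 21 had both IP replicates above IgG and 1 had both below, with a median of 0.85. Over all probe sets with a symbol the medians were -0.26 under 5 and 0.51 at 5 or above. Under 5, both IP replicates were above IgG for 5.88% of carriers and 10.1% of all probe sets, and below for 9644 of 14306. At 5 or above, both were above IgG for 80.8% of carriers and 69.1% of all, and below for 1883 of 8879. The mean over the 4 arrays includes the IP values, so a high IP value also helps to place a gene at 5 or above. Slc25a24, with 4.91 in input and 4.03 in IgG, reached its mean of 5.58 only through its IP values. All 11 carriers at least 2-fold over IgG were among the 26 carriers at 5 or above. By level they were 6 of 14 carriers between 5 and 6.5 (42.9%, against 18.7% of all genes there), 2 of 4 between 6.5 and 8 (50%, against 37.2%) and 3 of 8 from 8 upward (37.5%, against 33.4%). Whatever the size, both IP replicates were above both controls for 11 carriers (25.6%, against 13.6% of all probe sets with a symbol) and below both for 4 (9.3%, against 11.2%). The first were Slc25a4, Slc25a13, Slc25a15, Slc25a16, Slc25a24, Slc25a30, Slc25a32, Slc25a36, Slc25a45, Slc25a46 and Slc25a51. All 11 had a mean of 5 or above, while 14306 of all probe sets with a symbol lay under 5. The share of all probe sets at like level is not given. The second were Slc25a2, Slc25a18, Slc25a25 and Slc25a42.

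**Figure D3:**
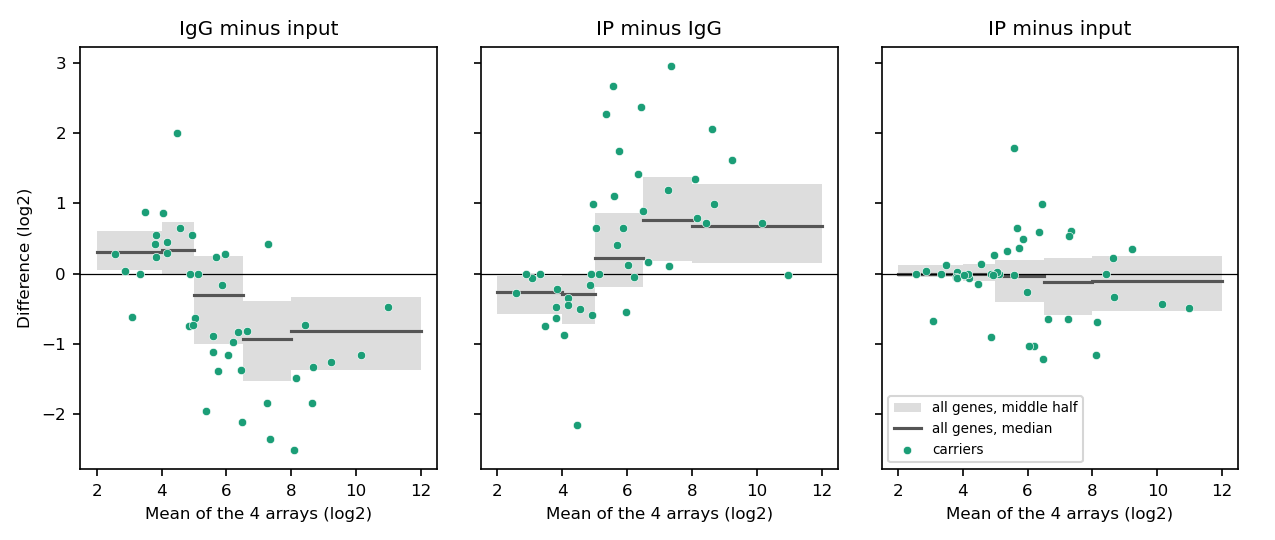
Difference in log2 value against the mean log2 value over the 4 arrays, for IgG minus input (left), IP minus IgG (middle) and IP minus input (right). Points are the 43 carriers, and the grey bands and dark lines are the interquartile range and median of all probe sets with a symbol in 5 bands of level. Carriers under 5 lie mostly above 0 in the left panel and below 0 in the middle one, and those above 5 the other way round.

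The 2 controls were compared by size only, since each is 1 array. In IgG minus input, 14 of 43 carriers (32.6%) were at least 2-fold lower in IgG, where 14.6% of all probe sets were, and 1 (Slc25a18, 2.33%) was at least 2-fold higher, where 7.99% were. After quantile normalization again the numbers were 10 and 2, for which the share of all probe sets is not given. The largest were Slc25a21 (5.68-fold lower in IgG than in input), Slc25a16 (5.08-fold) and Slc25a17 (4.30-fold). Of the 11 carriers at least 2-fold over IgG in the IP, 9 were also among these 14. The exceptions were Slc25a4 and Slc25a24, at 1.77- and 1.84-fold lower in IgG than in input. Both comparisons use the same single IgG array, so a low IgG value enters both. The overlap over all probe sets is not given here, so the 9 cannot be set against it.

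The proteins that bring carriers to the inner membrane were measured as a list of 16 genes, of which 15 were matched and tested. Against IgG 5 rose and 1 fell, where 29.2% and 17.2% of all tested genes did, and the median was 0.41. Against input 1 rose and none fell, where 9.39% and 13.3% of all did, and the median was -0.09. The highest against IgG were Tomm22, a receptor of the outer membrane pore, which rose by 2.51 (limma adjusted p = 0.0157), and Timm8b, a small chaperone, which rose by 1.89 (limma adjusted p = 0.0177). The lowest were Tomm7, which fell by 0.84 (limma adjusted p = 0.0256), and Timm13 at -0.29. Tomm70a, the receptor that recognises carrier precursors, was the 1 that rose against both controls, by 1.58 from IgG (limma adjusted p = 0.00641) and by 0.70 from input (limma adjusted p = 0.0192). Timm22, the channel that inserts carriers, was 1.01 over IgG and did not pass (limma adjusted p = 0.104). The highest against input beside Tomm70a was Tomm20 (0.78), and the lowest were Tomm5 (-0.585) and Timm8b (-0.40).

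Other mitochondrial transport proteins, a list of 25 of which 17 were tested, had 11 up and 1 down against IgG, beside the same shares of all genes, and none up and 1 down against input. The medians were 0.50 and 0.00. The highest against IgG were Vdac1 and Vdac2, the pores of the outer membrane, which rose by 2.41 (limma adjusted p = 0.00629) and 2.19 (limma adjusted p = 0.0208). The lowest tested were Sfxn5, which fell by 0.34 (limma adjusted p = 0.00852), and Sfxn4 at -0.22. Against input the highest was Mcu, the calcium uniporter, at 0.86 (limma adjusted p = 0.0672), followed by Vdac2 at 0.31, and the lowest were Smdt1, a regulator of that uniporter, at -1.27 (limma adjusted p = 0.222), and Sfxn4 at -0.61. Mtch1, a relative of the carriers in the outer membrane, fell by 0.20 against input (limma adjusted p = 0.0235).

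A list of 20 matrix enzymes and proteins, of which 19 were tested, had 17 up and none down against IgG, where 29.2% and 17.2% of all tested genes were, and 1 up and 4 down against input, where 9.39% and 13.3% were. The medians were 1.21 and -0.01. The matched genes of this list had a median level of 8.14 in input and 6.41 in IgG. Over all probe sets with a symbol, the median difference from IgG was 0.765 between 6.5 and 8 and 0.681 from 8 upward. The shares of all tested genes set beside the 3 lists are not at like level. The part of level in the list counts was not tested. Pdha1, a subunit of pyruvate dehydrogenase, rose by 3.34 from IgG (limma adjusted p = 0.00778) and by 0.68 from input (limma adjusted p = 0.0488). Idh3a, of the tricarboxylic acid cycle, rose by 3.01 over IgG (limma adjusted p = 0.0095) and was 0.03 from input. The lowest against IgG were Idh3g (-0.03) and Mdh2 (0.09), and these were also the lowest against input, where Mdh2 fell by 1.32 (limma adjusted p = 0.0322) and Idh3g was at -1.26 (limma adjusted p = 0.0773). The second highest against input was Hspa9, at 0.51 (limma adjusted p = 0.0751). Idh3b, Ogdh and Dld also fell against input, with differences of -0.75, -0.605 and -0.08 (limma adjusted p = 0.0164, 0.0164 and 0.0485). In the 3 lists no gene was at least 2-fold above both controls, where 1.5% of all probe sets were.

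**Figure D4:**
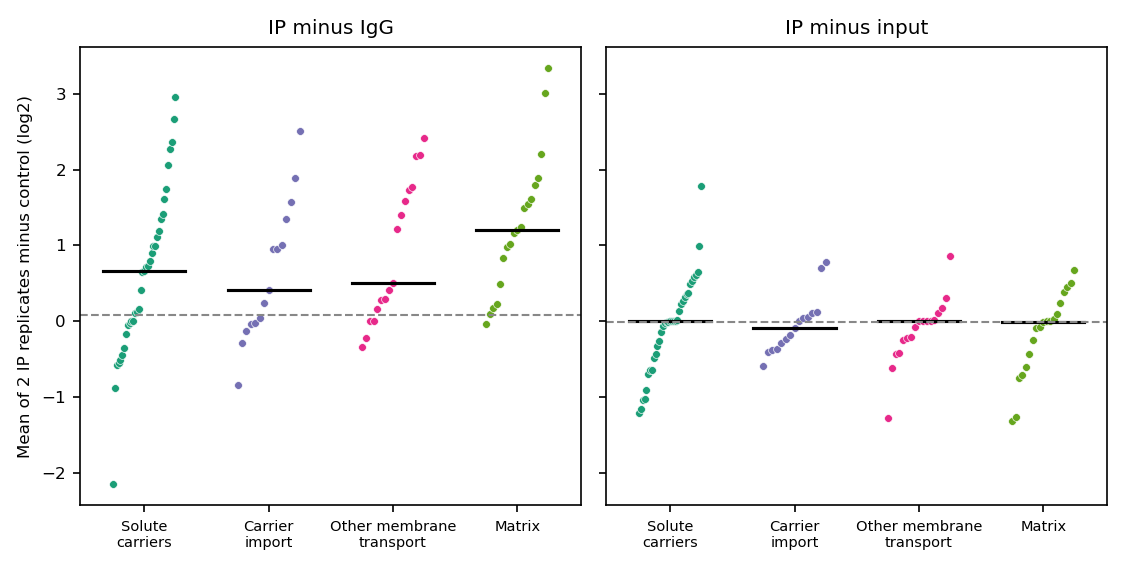
Difference of the mean of the 2 IP replicates from IgG (left) and from input (right), on the log2 scale, for the tested genes of 4 groups: solute carriers (35), carrier import (15), other membrane transport (17) and matrix (19). Each point is 1 gene in rising order, black bars are group medians and the dashed line is the median of all tested genes. The medians over IgG run from 0.41 to 1.21, and those over input from -0.09 to 0.00. The groups differ in level, and the dashed line is not at like level.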

How the data were processed

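RNA from Ter119+ cells of mouse E14.5 liver was measured on 4 Affymetrix arrays: 2 Cpeb4 immunoprecipitates, 1 IgG precipitate and 1 total input. The authors deposited log2 values, 1 for each probe set (Entrez gene) on each array. Per the submitters' processing notes, the tools were RMA and affy; versions, probe definition, filters and genome build are not given in the sources used here, so no coordinates are printed. The number of arrays limits the precision.

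Groups came from the sample titles. Gene symbols were those of the annotation table for the array and were checked in RefSeq. Differences were fitted in R 4.3.3 by limma 3.58.1 with 1 mean per group, on the 13911 genes with a symbol whose mean over 4 arrays was at or above the 40th percentile. Benjamini-Hochberg adjustment ran over these genes. The fit was also run on simulated data with and without equal IP values. Only the recovery of large changes without equal values was required there. False calls and the runs with equal values are not given, so the simulation says nothing here about calls on such genes. The alternatives were quantile normalization again, centring of each array on its median over tested genes, no filter (or, for counts by size, the filter), 1.5-fold, eBayes with trend and robust, each IP replicate left out, and a common-spread test. The last used 1 pooled IP spread in each of 20 bins of expression and a normal distribution.

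The carriers, role groups, lists and tests were chosen with earlier results of these data known. Carriers described with their array values were those at least 2-fold from both controls, the 5 largest rises and 5 largest falls per control, and the 5 highest in input. So were those whose IP replicates differed by more than 1 (none did), and the ADP/ATP, aspartate/glutamate, glutamate and iron carriers. Other carriers could be named. Of the lists, the 2 highest and 2 lowest genes per control were named. Tomm70a and Mtch1, the calls against input in the import and other transport lists, and Timm22 were added after their values were seen. So were Idh3b, Ogdh and Dld, the remaining falls against input in the matrix list.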

Additional observations from a re-analysis of the deposited data

How the results depend on the processing

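Slc25a24 stayed the carrier at least 2-fold above both controls under quantile normalization again and under centring, and the count below both controls was 0 in all settings run. The counts that follow are of carriers alone, without the share of all probe sets under the same setting. With a 1.5-fold threshold 18 were higher and 3 lower than IgG, and 3 higher and 8 lower than input. At that threshold 3 were higher than both controls, and 4 were higher and 23 lower in IgG than in input. Quantile normalization again gave 9 carriers higher and 2 lower than IgG, 1 lower than input and 2 higher in IgG than in input. Centring gave 9 higher and 2 lower than IgG and 3 higher in IgG than in input. Without IP replicate 1 or 2 in turn, the counts were 12 and 12 higher than IgG, 1 to 2 higher than input and than both, and 2 to 4 lower than input.

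By limma, centring called 19 carriers up against IgG, and 10 up and 10 down against input; centring gives genes with equal IP values a small difference. The common-spread test called 19 up against IgG, and 7 up and 11 down against input, and eBayes with trend and robust 2 down against input. For centring and for eBayes with trend and robust the shares of all tested genes are not given. The median of the tested carriers over IgG, 0.66, was 0.14 after quantile normalization again, 0.41 after centring, 0.125 with no filter, and 0.678 to 0.725 without an IP replicate. Over input it was -0.028 and 0.048 after these normalizations and 0.00 without either replicate. For IgG minus input, -0.81 as deposited, it was -0.46, -0.52 and, with no filter, -0.64.

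In IgG minus input the sign turned for 7 of 43 carriers, the largest being Slc25a28, from -0.81 to 0.004, and Slc25a1, from -0.73 to 0.147, after quantile normalization again. For the IP it turned for 7 carriers against IgG, with differences up to 0.21, and 4 against input. Against IgG, quantile normalization again gave 0.047 for Slc25a25, -0.46 for Slc25a28 and -0.25 for Slc25a44, and centring -0.08 for Slc25a28 and -0.12 for Slc25a44. Against input, centring gave 0.024 for Slc25a47 and 0.037 for Slc25a48. The causes were not tested. No paired analysis was possible because IgG and input have 1 array each. With single control arrays, no spread of a control is known.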
